A study of Mus musculus with 18 samples.

Results

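The cerebellum of mice that lack apolipoprotein D (ApoD) was compared with that of wild-type mice 6 h after paraquat. The comparison rests on the 6 arrays labelled ApoD knock-out or wild-type with paraquat, replicates 1 to 3 of each, out of 18 arrays in the study. The other 12 arrays are saline controls of both genotypes and the saline and paraquat groups of mice that over-express ApoD in neurons. All mice were adult males of 80 ± 5 days. Per the labels, 9 mice of each genotype and treatment were injected once into the peritoneum, with paraquat (30 mg/kg, in 200 µl of saline) or with saline alone in a like volume. Each array carried RNA pooled from 3 randomly chosen mice, so a group is 3 pools, and the error of each value describes pools rather than single mice. The labels give neither the strain nor how the ApoD gene was inactivated, and whether the Apod probe set lies in the deleted stretch is not given in the sources used here. In bulk tissue, fewer cells of a type and less RNA per cell cannot be told apart.

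ApoD is a small secreted glycoprotein of the lipocalin family, whose barrel-shaped fold holds hydrophobic ligands such as arachidonic acid and progesterone. In the brain it is made mainly by glia, it accumulates with ageing and injury, and it limits lipid peroxidation. Paraquat is a herbicide that takes up an electron from cellular reductases and passes it to oxygen, so that superoxide forms continuously while reducing equivalents are used up.

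The data were log2 levels of 8320 genes, each read by 1 probe set, and differences are given as knock-out minus wild-type on the log2 scale. Tests are limma's, fitted on all 18 arrays unless stated, and a call needs an adjusted p (Benjamini-Hochberg over the 8320 genes) under 0.05. Replicate 2 of knock-out paraquat stood apart: its median level was 6.98 against 7.10 to 7.15 on the other 17 arrays, and its mean correlation with the others was 0.957 against 0.970 to 0.986. On that array 84.6% of genes lay below the mean of the wild-type paraquat arrays, against 56.2% on replicate 1 and 51.9% on replicate 3. Its shortfall was small among the weakest genes and large elsewhere. The median difference from the wild-type mean was 0.01 in level class 1 of 10, which holds the weakest genes, -0.42 in class 5 and -0.33 in class 10. Results are therefore given with and without this array.

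**Figure D1:**
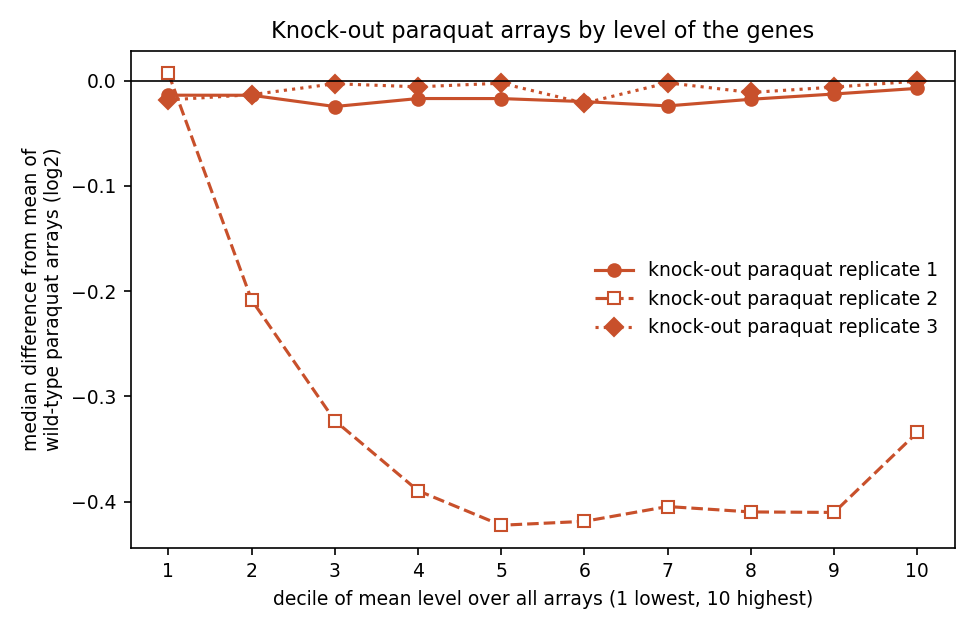
Median difference of each knock-out paraquat array from the mean of the 3 wild-type paraquat arrays (log2, y axis), by decile of the genes' mean level over all arrays (x axis), with 832 genes in each. Replicates 1 and 3 stay between -0.02 and -0.00 throughout, and replicate 2 lies between -0.39 and -0.42 in deciles 4 to 9.

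Apod itself, the targeted gene, was the one gene called: 1 of 8320 genes, or 0.0120%. Its levels were 12.53, 12.68 and 12.76 in wild-type paraquat and 9.63, 9.83 and 9.16 in knock-out paraquat, with no overlap. The difference was -3.12 (SE 0.13, limma adjusted p = 8.65e-12), an 8.69-fold lower signal, and -3.26 (SE 0.12, adjusted p = 1.5e-11) without replicate 2. All 3 knock-out arrays were thus low, as labelled. The knock-out signal did not reach the bottom of the scale: it lay above the median level of every array. It was also higher with paraquat than with saline, where the knock-out arrays read 8.40, 8.22 and 8.50 and the wild-type arrays 12.47, 12.38 and 12.54. The genotype difference under saline was -4.09, so the gap between genotypes was smaller under paraquat by 0.97 (SE 0.19), which did not pass the test over all genes (limma adjusted p = 0.487). Without knock-out paraquat replicate 3, the lowest of the paraquat knock-outs for Apod, Apod was the 1 gene called for that difference.

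The RefSeq window from 250 bases before to 50 bases after the Apod start shows where the targeted transcript begins, at chr16:31314759-31315058 on the minus strand of GRCm38.p6, with nothing marked in capitals.
Apod: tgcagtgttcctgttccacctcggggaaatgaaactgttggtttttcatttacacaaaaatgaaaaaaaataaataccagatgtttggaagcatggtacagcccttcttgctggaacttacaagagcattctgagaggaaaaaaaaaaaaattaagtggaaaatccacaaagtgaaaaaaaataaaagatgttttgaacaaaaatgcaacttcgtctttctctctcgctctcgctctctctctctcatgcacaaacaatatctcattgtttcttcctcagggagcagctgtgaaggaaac

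Beyond Apod, the number of genes called varied with the arrays in the fit. Leaving out knock-out paraquat replicate 2 gave 2 genes (0.0240%), Apod and Zfp36. Leaving out wild-type paraquat replicate 1 gave 5 and leaving out knock-out paraquat replicate 1 gave 12, all lower in the knock-out. Fitted on the 12 wild-type and knock-out arrays alone, 23 genes were called (0.276%), 3 higher and 20 lower. Without replicate 2 in that fit, 91 genes were called (1.09%), 30 higher and 61 lower, and these included all 23. The median residual SD of a gene was 0.159 with all arrays and 0.0908 on those 11, which lack both the transgenic arrays and replicate 2. Quantile normalisation of the deposited values called 1 gene lower, Apod, and 1 higher, Appbp2.

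The low array also set the balance between lower and higher genes. At an unadjusted p under 0.05 in limma, 941 genes (11.3%) were lower and 156 (1.88%) higher with all arrays. Without replicate 2 there were 235 lower (2.82%) and 137 higher (1.65%). The median difference of all genes was -0.12 with the array and -0.01 without it, so differences are read against those medians.

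The 23 genes that followed Apod in order of p were all lower in the knock-out, on arrays that did not overlap. Of all genes, 12.1% were lower and 2.16% higher without overlap, but the choice by p favours such genes, so nothing is read from this count. None was called with all arrays, their limma adjusted p running from 0.0528 to 0.224. Their median difference was -0.64, and -0.55 without replicate 2, where all 23 were still lower. The smallest p of these belonged to Crim1, which encodes a transmembrane protein that binds bone morphogenetic proteins. Crim1 read 8.65, 9.44 and 9.21 in wild-type paraquat and 8.28, 7.55 and 7.85 in knock-out paraquat. All 3 knock-out arrays lay below all wild-type arrays, though the first replicates of the genotypes were close to each other. The difference was -1.21 (SE 0.21, adjusted p = 0.0528), -1.04 without replicate 2 (adjusted p = 0.199), and passed the test on the 11 wild-type and knock-out arrays (adjusted p = 0.0128).

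Otub1, a deubiquitinase that also restrains ubiquitin-conjugating enzymes, read 9.28, 9.05 and 8.96 in wild-type paraquat and 8.66, 8.05 and 7.97 in the knock-out. Its difference was -0.87 (SE 0.16, limma adjusted p = 0.0528) and -0.79 without replicate 2. Its other probe set differed by -0.19. For 16 of these 24 genes the array carries other probe sets. In 10 of them every other probe set had the same sign and in 6 at least 1 had the opposite sign.

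Subunits of voltage-gated calcium channels were among these genes. Cacna2d2, an auxiliary subunit prominent in Purkinje cells, read 9.94, 10.12 and 9.95 in wild-type paraquat and 9.33, 9.07 and 9.36 in the knock-out. The groups lay well apart, by -0.75 (SE 0.14, limma adjusted p = 0.0528), -0.65 without replicate 2. The other probe sets of Cacna2d2, at mean levels of 3.89 and 5.05, differed by 0.16 and 0.18, with the opposite sign. Without replicate 2 they differed by 0.17 and -0.04. The related Cacna2d1 differed by -0.81 and by -0.71 without that array (adjusted p = 0.117 and 0.522). Regulators of transcription were Zeb2 (-1.27), a zinc-finger repressor, Sox4 (-0.99), a factor of neural progenitors, and Etv3 (-0.56), an ETS-family repressor. None of them was called. The other probe sets of Etv3 differed by 0.60 and -0.39, and by -0.09 and -0.02 without replicate 2. Those of Sox4 ran from -0.63 to 0.55, and from -0.90 to -0.09 without replicate 2. Genes of growth factor signalling and the cell surface were Tgfb2 (-0.63), a secreted ligand, Sdc4 (-0.91), a heparan sulphate proteoglycan, and Rhoj (-0.77), a small GTPase of endothelium, also not called. Zeb2 (adjusted p = 0.00675), Tgfb2 (0.0105), Rhoj (0.0237), Cacna2d2 (0.0224), Sdc4 (0.0315) and Etv3 (0.0332) passed on the 11 arrays, and Sox4 (0.0671) did not.

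**Figure D2:**
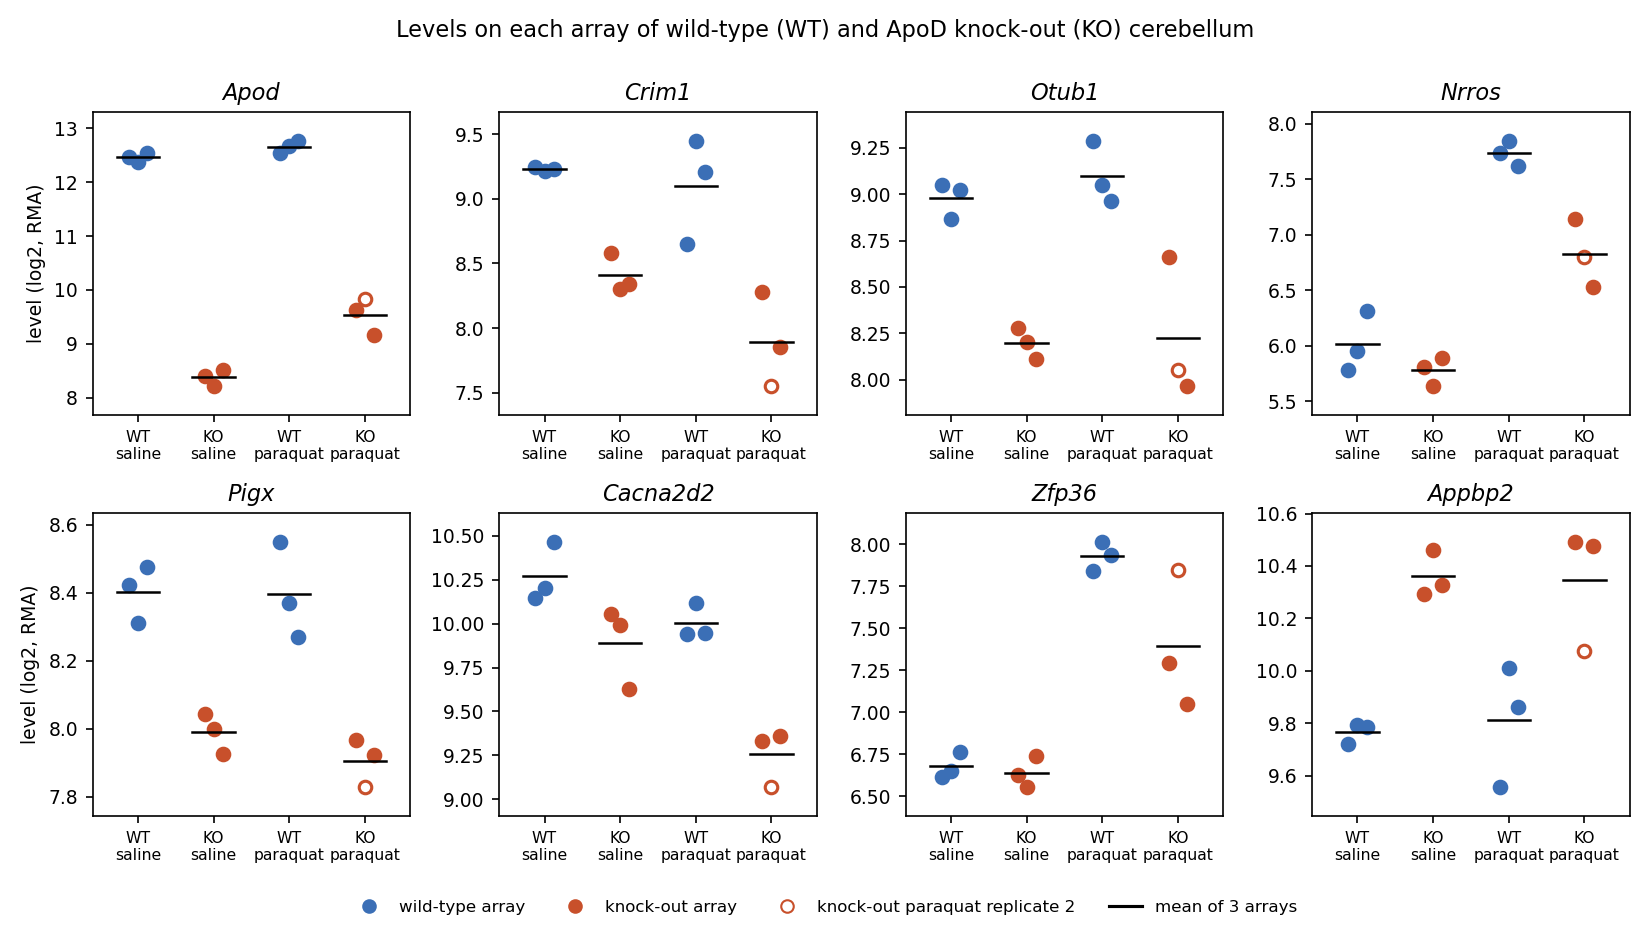
Log2 level (y axis) of 8 genes on each array of wild-type (blue) and knock-out (orange) mice under saline and paraquat, with bars at the mean of 3 arrays and replicate 2 of knock-out paraquat as an open circle. Crim1, Otub1 and Pigx sit lower in the knock-out under both treatments and Appbp2 higher. Nrros and Zfp36 are apart mainly under paraquat, and under saline both lie below the median level of every array. Replicate 2 for Zfp36 is at 7.85, among the wild-type arrays.

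Most of these differences were also present without paraquat. The saline arrays share no sample with the paraquat groups, but both enter the same fit and its estimate of each gene's spread. The choice by p thus favours genes with close saline replicates, which can raise the counts below without overlap and by p. Of the 23 genes, 22 were lower in the knock-out under saline, against 50.4% of all genes, and 16 did so without overlap, against 10.3% of all genes. At an unadjusted p under 0.05 under saline, 12 of them were lower, against 0.805% of all genes. Their median difference there was -0.32. Crim1 read 9.25, 9.21 and 9.23 in wild-type saline and 8.58, 8.31 and 8.34 in the knock-out, a gap as clear as under paraquat, of -0.82. Otub1 differed by -0.78 under saline and Pigx, a subunit of an enzyme that helps build glycosylphosphatidylinositol anchors, by -0.41. The other probe set of Otub1 differed by 0.10 under saline, with the opposite sign. Those of Crim1 and Pigx, at mean levels of 4.60 and 4.68, differed by -0.17 and -0.03. Across the 8320 genes, the genotype differences under saline and under paraquat had a Pearson r of 0.42 and a Spearman rho of 0.35, and of 0.62 and 0.48 without replicate 2. This is a description across genes, which are not independent replicates, and all arrays share the probe sets.

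**Figure D3:**
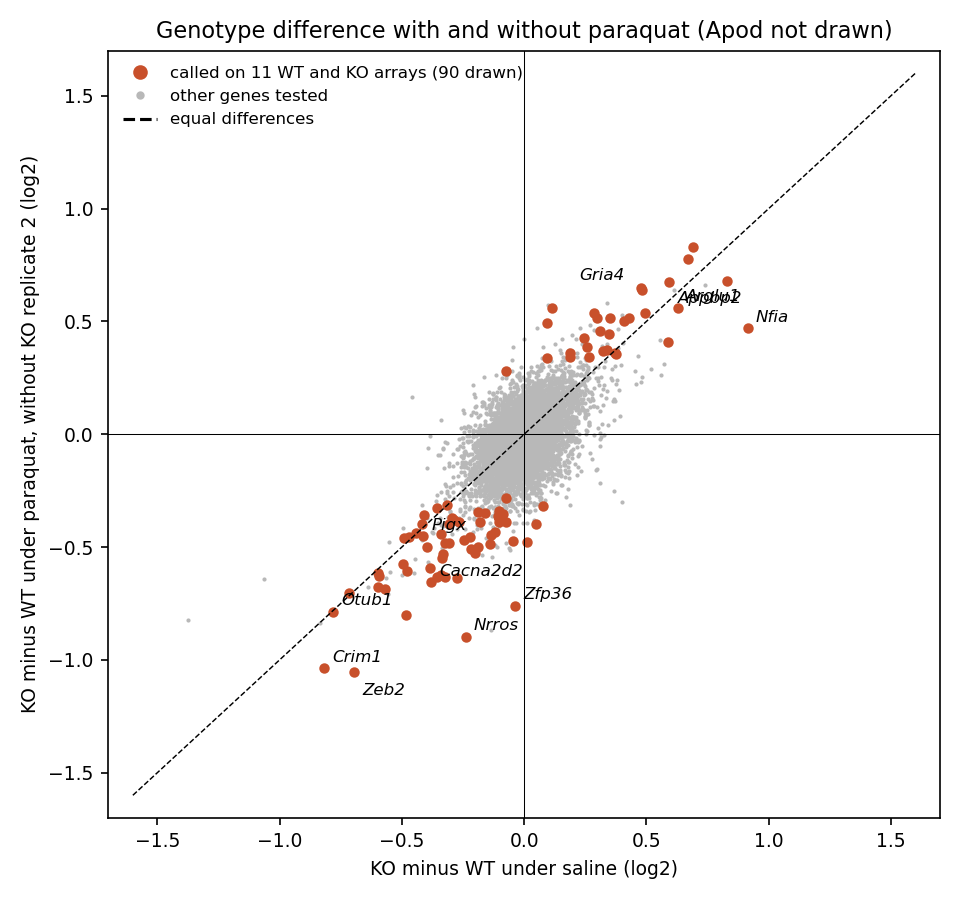
Knock-out minus wild-type (log2) under saline (x axis) and under paraquat without knock-out replicate 2 (y axis) for each gene tested except Apod, with the 90 other genes called on the 11 wild-type and knock-out arrays in orange and the line of equal differences dashed. Most orange genes lie at the lower left or upper right, while Zfp36 and Nrros lie near 0 on the x axis relative to their place on the y axis.

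Of the 91 genes called on the 11 arrays, 87 had the same sign under saline, against 67.1% of all genes, and 29 were also called there in the same direction, in a fit that called 39 genes under saline (0.469%). That fit likewise shares each gene's spread between the treatments, so the 29 are not independent of the choice. None of the 91 passed the test of the difference between treatments in that fit, where 278 genes were at an unadjusted p under 0.05. With all arrays, no gene was called for that difference either (0.00%), 148 being at an unadjusted p under 0.05. When the genotype difference was averaged over both treatments, a contrast chosen after the values were seen, 15 genes were called with all arrays (0.180%), 3 higher and 12 lower, and 16 without replicate 2 (0.192%), 11 of them in common. Averaged over treatments, on the probe sets used, Crim1 fell by 1.01 (limma adjusted p = 0.00293), Otub1 by 0.83 (0.0018), Cacna2d2 by 0.56 (0.012) and Pigx by 0.45 (0.00293).

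Genes higher in the knock-out were fewer, and those named here were chosen after their values were seen. Appbp2, which encodes a substrate receptor of a ubiquitin ligase and binds the amyloid precursor protein, read 9.56, 10.01 and 9.86 in wild-type paraquat and 10.49, 10.07 and 10.48 in the knock-out. Even the low replicate 2 lay above all wild-type arrays, by a difference of 0.54 (0.67 without it) that was 0.59 under saline, and the average over treatments rose by 0.57 (limma adjusted p = 0.0107). Nfia, a transcription factor of glial and granule neuron development, was called under saline, where it rose by 0.91 (adjusted p = 0.00383), 1 of 2 genes called there with all arrays (0.0240%), the other being Apod. No higher gene was called under saline in 5 of 18 other settings: without wild-type saline replicate 1, without knock-out saline replicate 1 or 2, with a filter at the 60th percentile and with the mean of all probe sets. Under paraquat Nfia read 6.90, 6.90 and 6.83 against 7.32, 7.01 and 7.38, a smaller gap of 0.36 that was not called. Arglu1, a splicing and transcription co-regulator, differed by 0.39 on the probe set used and by -0.67 on its other one, so its direction depends on the probe set.

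Further higher genes on the 11 arrays were likewise picked after their values were seen. Gria4, an AMPA receptor subunit, read 7.35, 7.64 and 7.42 in wild-type paraquat and 8.02, 8.10 and 8.21 in the knock-out, without overlap, by 0.64 (limma adjusted p = 0.366 with all arrays, 0.0116 on the 11). Cacng7, an auxiliary AMPA receptor subunit, differed by 0.87 and Dlg2, a postsynaptic scaffold protein, by 0.69. All 3 were called on the 12 and on the 11 wild-type and knock-out arrays, and not with all 18. Gria4 and Dlg2 were highest of the 18 arrays on the third transgenic arrays, whereas Cacng7 under paraquat was not. Gria4 read 8.22 and 8.59 there, and 7.42 and 7.16 on the first transgenic arrays, under saline and paraquat. Cacng7 read 6.91 and 6.58 on the third and 5.36 and 5.54 on the first.

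Labelling and ribosomal RNA controls were compared on the same arrays, and some of them separated the genotypes. The array carries probe sets at both ends of the pyruvate carboxylase transcript, and the 3′ minus 5′ difference rises when labelling reaches the 5′ end less. That difference was 3.16, 2.97 and 3.12 in wild-type paraquat and 2.67, 2.25 and 2.82 in knock-out paraquat, without overlap. Under saline the genotypes overlapped, at 2.94, 2.95 and 2.85 in wild-type and 2.88, 2.74 and 2.85 in the knock-out. The third transgenic arrays were lowest, at 1.82 under saline and 1.95 under paraquat. The 5′ probe set for 18S ribosomal RNA was lower in the knock-out under both treatments: it ran from 7.15 to 8.52 in wild-type and 6.59 to 6.97 in knock-out paraquat, and from 7.12 to 8.62 and 6.70 to 6.96 under saline. Other controls overlapped under paraquat. The 3′ minus 5′ difference of actin was 0.88, 0.90 and 0.91 in wild-type and 0.70, 0.81 and 0.98 in the knock-out, and that of Gapdh 0.19, 0.07 and 0.24 against 0.05, 0.03 and 0.10. The 3′ probe set for 18S ran from 8.32 to 9.16 and from 8.46 to 8.60.

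The 60 genes called lower on the 11 arrays, Apod left out, had a mean level of 8.39 to 8.50 on the wild-type and 7.74 to 8.03 on the knock-out paraquat arrays. The transgenic arrays were not in that fit. There the same genes averaged 8.34, 8.15 and 7.85 on replicates 1 to 3 under saline, and 8.36, 8.13 and 7.98 under paraquat. On the second transgenic arrays the pyruvate carboxylase difference was 2.77 under saline and 2.63 under paraquat. The 5′ probe set for 18S read 7.17, 6.37 and 6.06 under saline and 6.70, 5.89 and 5.98 under paraquat. By it the first transgenic paraquat array lay within the knock-out range. Replicates 1 and 3 were set side by side after their values were seen. Of the 60, 44 were lower on the third than the first transgenic array under both treatments (73.3%, against 31.7% of all genes). Of the 30 higher genes, 18 were higher on it under both (60%, against 23.005%). For the 60 lower genes, the third transgenic arrays thus lay within the range of the knock-out arrays of both treatments, 7.74 to 8.14. The first transgenic arrays lay close to that of the wild-type arrays, 8.34 to 8.50. The part of labelling in the genotype differences was not tested. Under saline, where the pyruvate carboxylase control overlapped between genotypes and the 5′ probe set for 18S did not, the 60 genes ran from 8.34 to 8.40 in wild-type and 8.002 to 8.14 in the knock-out.

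**Figure D4:**
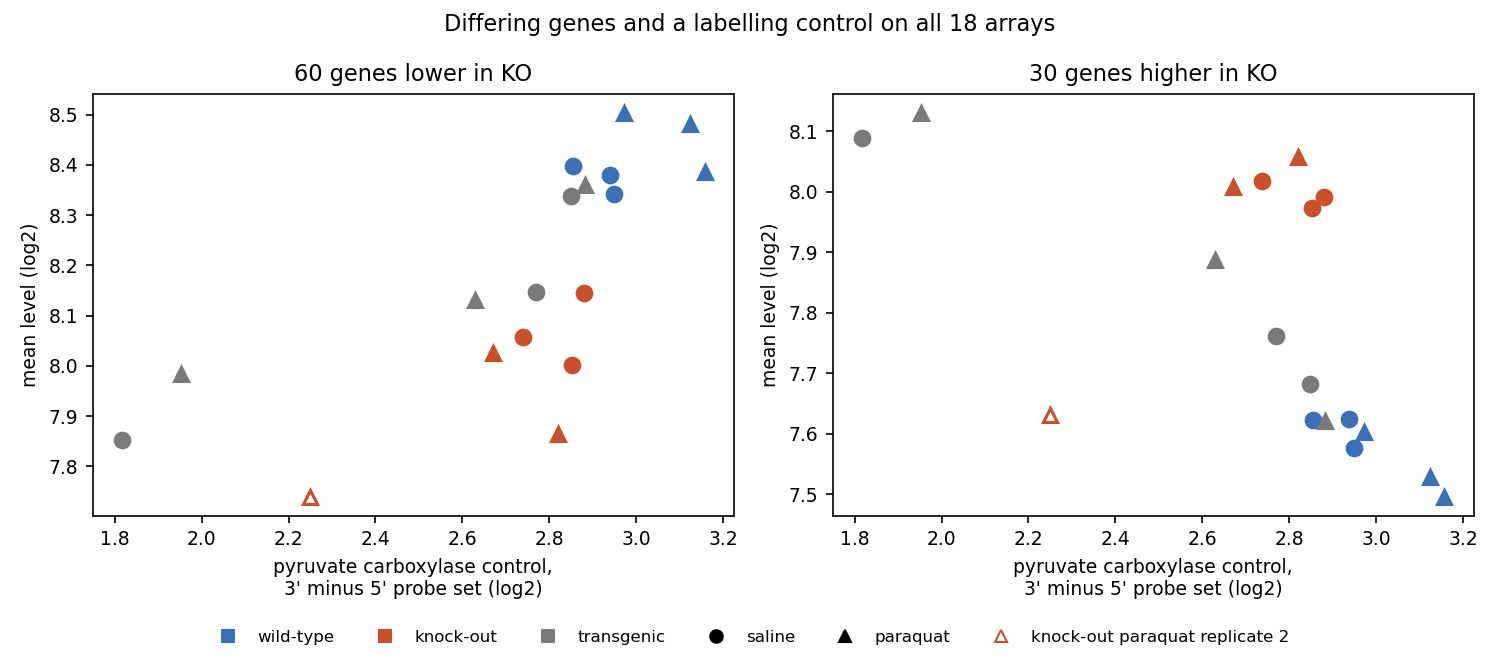
Mean log2 level (y axes) of the 60 genes called lower (left) and the 30 called higher (right) in the knock-out on 11 arrays, against the 3′ minus 5′ difference of the pyruvate carboxylase control (x axes, log2), on all 18 arrays. The third transgenic arrays, at 1.82 and 1.95 on the x axis, lie within the knock-out range on the left. On the right, at 8.09 and 8.13, they lie above every knock-out array. The first transgenic arrays lie near the wild-type arrays, and on the right so does replicate 2 of knock-out paraquat, at 7.63.

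Genes beside Apod on chromosome 16 were taken as a set, since the knock-out alters this locus. Counted along the measured genes of the RefSeq order, Pigx, Cep19 and Nrros follow each other at places 6, 7 and 8 after Apod. Nrros, a leucine-rich repeat protein that in microglia and macrophages anchors latent transforming growth factor beta and limits reactive oxygen species, read 7.73, 7.84 and 7.62 in wild-type paraquat and 7.14, 6.80 and 6.53 in the knock-out. The arrays were clearly apart, by -0.91 (SE 0.17, limma adjusted p = 0.0528), and by -0.90 without replicate 2 (adjusted p = 0.199). Under saline Nrros read 5.78, 5.95 and 6.32 in wild-type and 5.80, 5.64 and 5.89 in the knock-out. These overlap and lie below the median level of every array, where a difference is harder to see. The gap was therefore wider under paraquat by -0.67, at an unadjusted p of 0.011 that did not pass over all genes (adjusted p = 0.868).

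Pigx read 8.55, 8.37 and 8.27 in wild-type paraquat and 7.97, 7.83 and 7.92 in the knock-out, an even gap of -0.49 (SE 0.10, limma adjusted p = 0.0727) that was -0.45 without replicate 2. Cep19, a centrosome and ciliary base protein, read 10.19, 10.03 and 9.95 against 9.87, 9.44 and 9.80, also without overlap, by -0.35 (-0.22 without replicate 2 and -0.29 under saline). Their starts lie 62 bases apart and point away from each other, so their RefSeq windows share 161 bases. The shared stretch is in capitals in the Pigx window, at chr16:32099678-32099977 on the minus strand of GRCm38.p6, shown because both genes differed the same way.
Pigx: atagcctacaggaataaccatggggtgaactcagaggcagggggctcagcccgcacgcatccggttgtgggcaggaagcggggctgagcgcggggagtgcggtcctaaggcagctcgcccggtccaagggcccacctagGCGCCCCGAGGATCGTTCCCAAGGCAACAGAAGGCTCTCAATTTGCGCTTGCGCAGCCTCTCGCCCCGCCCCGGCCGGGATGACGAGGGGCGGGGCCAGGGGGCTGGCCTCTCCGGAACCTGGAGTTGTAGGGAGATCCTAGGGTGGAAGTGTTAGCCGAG

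Among the 20 measured genes on either side of Apod, none was called. At an unadjusted p under 0.05, 10 of the 40 were lower and 2 higher, beside 11.3% and 1.88% of all genes. Without replicate 2 there were 4 and 0, beside 2.82% and 1.65%. The median of the 40 was -0.17, -0.08 without that array and -0.01 under saline, beside -0.12, -0.01 and -0.00 for all genes. The nearest neighbour after Apod, Bdh1, a mitochondrial ketone body dehydrogenase, differed by -0.46 (-0.32 without replicate 2). Its other probe set, at a mean level of 6.25, differed by -0.04, and by 0.41 without replicate 2.

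**Figure D5:**
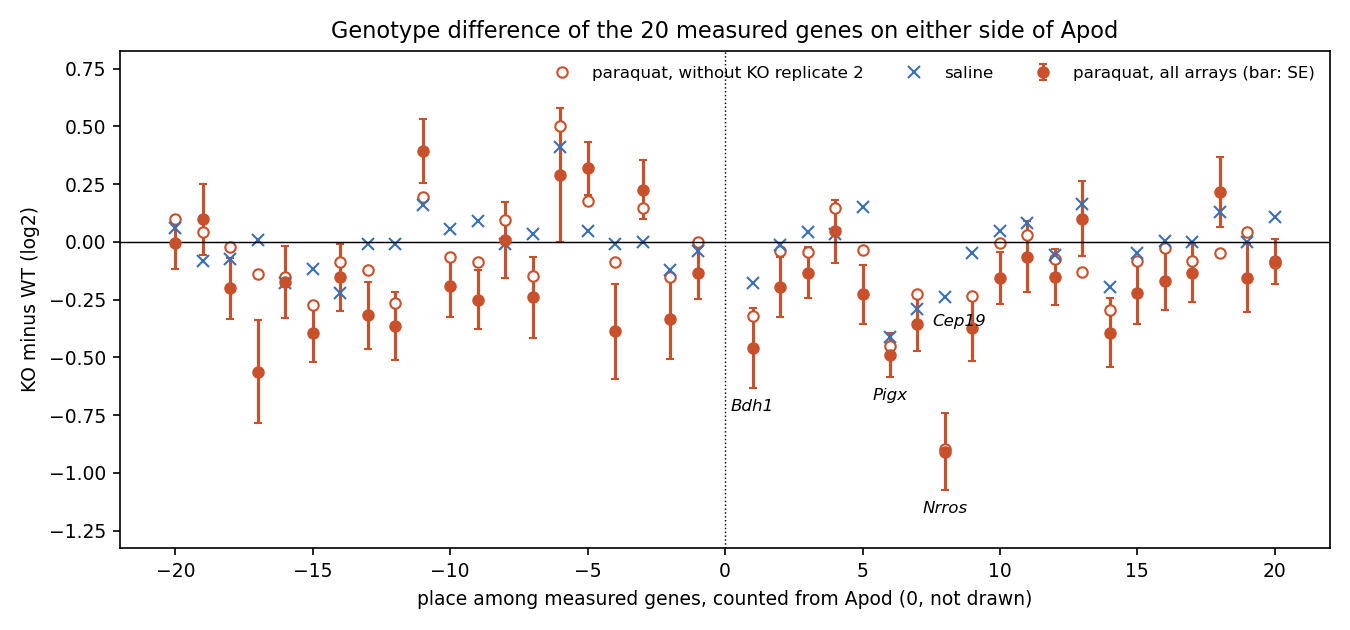
Knock-out minus wild-type (log2, y axis) of the 20 measured genes before and the 20 after Apod, by place (x axis), under paraquat with all arrays (filled, bars are the SE), without knock-out replicate 2 (open) and under saline (crosses). Nrros at place 8 is the lowest under paraquat with and without the array, at -0.91 and -0.90, and Pigx at place 6 has nearly the same difference in all 3.

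Zfp36 encodes tristetraprolin, an early-response protein that binds AU-rich elements and hastens the decay of cytokine messengers. It read 7.84, 8.01 and 7.94 in wild-type paraquat and 7.29, 7.85 and 7.05 in the knock-out. Replicate 2 of the knock-out thus came up to the wild-type arrays, against the run of that array, while the other knock-outs lay clearly lower. The difference was -0.53 with all arrays (limma adjusted p = 0.258) and it fell by 0.76 without replicate 2 (SE 0.10, adjusted p = 0.00268). Under saline it read 6.62, 6.65 and 6.76 in wild-type and 6.63, 6.56 and 6.74 in the knock-out, which overlap and lie below the median level of every array. The change of the genotype difference was -0.72 without replicate 2, at an unadjusted p of 4.61e-05 and an adjusted p of 0.38.

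The Zfp36 window, at chr7:28379179-28379478 on the minus strand of GRCm38.p6 per RefSeq, is shown because it holds a CArG box, the site of serum response factor, at -58 bases from the start and in capitals. Of 32851 windows in the RefSeq table, 1.63% hold a CArG box on either strand.
Zfp36: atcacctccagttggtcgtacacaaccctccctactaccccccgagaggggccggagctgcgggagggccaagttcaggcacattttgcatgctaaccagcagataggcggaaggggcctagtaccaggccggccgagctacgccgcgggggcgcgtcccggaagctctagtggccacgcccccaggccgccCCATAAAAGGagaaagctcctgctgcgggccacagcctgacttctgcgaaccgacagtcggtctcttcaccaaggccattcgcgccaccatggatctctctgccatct
Of the windows of Apod, Pigx, Cep19, Nrros, Crim1, Otub1 and Zfp36, none of the others held a CArG box. None of the 7 held an AP-1 site (TGANTCA, in 7.81% of windows), a cAMP response element (TGACGTCA, 1.79%) or a glucocorticoid receptor half-site (AGAACA, 19.0%), searched on both strands.

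Each count of list members below is at an unadjusted p under 0.05 in limma, to be read against 11.3% lower and 1.88% higher of all genes, or 2.82% and 1.65% without replicate 2. Genes around ApoD's own function were then taken as lists, and no member of any of the 34 lists was called with all arrays, where Apod itself was in no list. Of 17 other apolipoproteins and lipocalins on the array, 6 were high enough to be tested, and none was at an unadjusted p under 0.05 in limma. Apoe, the main lipid carrier of astrocytes, differed by -0.06, Clu, clusterin, by -0.08, and Ptgds, the lipocalin that makes prostaglandin D, by -0.06. Lcn2, an iron-siderophore carrier of inflammation, differed by 0.31. The list's median was -0.06, and 0.02 without replicate 2. Among 15 genes of arachidonic acid and prostaglandin metabolism, Ptges2, a prostaglandin E synthase (-0.35), and Alox5ap, the partner of arachidonate 5-lipoxygenase (-0.33), were lower at an unadjusted p under 0.05, and 0 remained so without replicate 2. Of 21 genes of lipid transport, 4 were lower, among them Fabp5, a fatty acid carrier (-0.26), and 1 was lower without that array, Lpl, lipoprotein lipase (-0.38).

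Enzymes of oxidant defence, which remove the superoxide and peroxide that paraquat yields, gave the following counts. Of 21 genes of peroxide and superoxide removal, 3 were lower at an unadjusted p under 0.05 with all arrays: Glrx, glutaredoxin (-0.34), Cat, catalase (-0.48), and Prdx4, a peroxiredoxin of the endoplasmic reticulum (-0.32). Without replicate 2 there were 0, and the list median went from -0.13 to -0.06. Of 22 NRF2 targets and glutathione genes, 3 were lower, and Nqo1, the quinone reductase, was the 1 that was still lower without that array (-0.28 and -0.21). The list median was -0.14, and -0.06 without it. Of 10 genes that reduce paraquat or make superoxide, Cyb5r3, a cytochrome b5 reductase, was lower in both (-0.28 and -0.25).

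Hormone and stress responses were read from several lists. Of 33 glucocorticoid-responsive genes, 5 were lower with all arrays, and 3 lower and 1 higher without it, with medians of -0.19 and -0.09. Cebpb, a transcription factor of the acute-phase response, read 7.78, 7.24 and 7.63 in wild-type paraquat and 7.37, 6.90 and 6.81 in the knock-out. Knock-out replicate 1 lay within the range of the wild-type arrays, and the difference was -0.52 (-0.46 without replicate 2, -0.16 under saline). The hormone-induced Fkbp5, a chaperone of the glucocorticoid receptor, lay between 10.003 and 10.17 in wild-type and between 9.51 and 10.06 in the knock-out, which overlap.

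Of 21 immediate early genes, 3 were lower and 1 higher with all arrays, and as many without it, with medians of -0.12 and -0.02. Gadd45g, a growth-arrest and DNA-damage gene, read 9.65, 9.53 and 9.55 in wild-type paraquat and 9.37, 9.20 and 9.10 in the knock-out. The arrays did not overlap, and the difference was -0.35 (limma adjusted p = 0.289), -0.34 without replicate 2 and -0.06 under saline. Its relative Gadd45b differed by -0.37 and -0.24.

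Of 19 p53 targets, 6 were lower with all arrays and 1 without replicate 2, with medians of -0.22 and -0.07. Of 20 genes of cholesterol synthesis, 5 were lower with all arrays and 0 without it, with medians of -0.21 and -0.07. Of 71 genes of oxidative phosphorylation none was at an unadjusted p under 0.05 in either. Of 26 genes of synaptic transmission, 1 was lower and 3 higher, their median was -0.07 and 0.07 without replicate 2, and 3 of them were called on the 11 arrays: Gria4 and Gabrb2, a GABA-A receptor subunit (0.49), higher, and Syn2, a synaptic vesicle protein (-0.36), lower. The median of that list thus changed sign with the low array. So did those of several other lists, among them apolipoproteins and lipocalins, clock genes and granule neurons. The other probe set of Syn2, at a mean level of 9.89, differed by -0.01, and by 0.10 without replicate 2, so its direction depends on the probe set.

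The other pathway lists had few members at an unadjusted p under 0.05. Of 31 heat shock and unfolded protein genes, 1 was lower, Dnajb9, a chaperone of the endoplasmic reticulum (-0.27), and the median turned from -0.09 to 0.05 without replicate 2. Of 16 clock genes, 2 were lower with and without it, led by Csnk1e, a kinase of the period proteins (-0.50 and -0.53). Of 22 genes of the amino acid response, 1 was lower (median -0.13, and -0.00 without replicate 2). Of 10 inflammatory genes, 2 were lower, led by Stat3, a cytokine-activated factor (-0.43, and -0.27 without replicate 2). The other probe sets of Stat3 differed by -0.12 and 0.28, and by 0.04 and 0.07 without that array. Of 14 interferon and MHC class I genes, 1 was lower and 1 higher. Of 33 genes of lysosome and autophagy 2 were lower, of 42 ribosomal proteins 4, and of 35 proteasome and ubiquitin genes 4, Otub1 among them. Without replicate 2 these 3 lists had 0, 0 and 1 lower.

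Markers of cell types were taken in the same way. Granule neurons, the main cells of this tissue, had 15 markers tested, with mean levels of 10.64 to 10.69 on the wild-type paraquat arrays and 10.37 to 10.83 on the knock-out arrays, the lowest being replicate 2. Purkinje markers (15) were at 11.27 on all 3 wild-type arrays and 10.98 to 11.34 on the knock-out arrays, and astrocyte and Bergmann glia markers (21) from 10.45 to 10.49 and 10.15 to 10.56. Gfap, the astrocyte filament protein, read 9.93, 9.96 and 10.42 in wild-type paraquat and 9.79, 9.20 and 9.68 in the knock-out, without overlap, by -0.55 (-0.37 without replicate 2), and was not called. It was the member with the smallest p, and the list did not follow it: without replicate 2 only 6 of the 21 were below 0, the median was 0.08, and 1 was lower and 2 higher at an unadjusted p under 0.05. Slc1a3, the glutamate transporter of these glia, was called on the 11 arrays, where it rose by 0.39 (limma adjusted p = 0.0429). Of 20 oligodendrocyte markers, 4 were lower at an unadjusted p under 0.05 with all arrays and 1 without replicate 2, with mean levels of 10.44 to 10.58 and 10.08 to 10.50. Olig2, the factor that specifies these cells, read 7.33, 7.66 and 7.76 in wild-type paraquat and 7.43, 6.22 and 7.20 in the knock-out, so that the gap of -0.64 shrank to -0.27 without replicate 2. Of 7 markers of their precursors, 3 were lower, and 0 without that array. Microglia (13 markers) ran from 7.84 to 7.85 and 7.58 to 7.81, with 2 lower and 0 without replicate 2, and interneurons and Golgi cells (10) from 8.94 to 8.96 and 8.68 to 8.88, with 1 lower, and 2 without that array.

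Markers of vessels, blood and tissue that can come along with the cerebellum were also read. Meninges and fibroblasts (15 markers) ran from 7.78 to 7.98 in wild-type and 7.64 to 7.84 in knock-out paraquat, with 4 lower with all arrays and 1 without replicate 2. Dcn, decorin, differed by -0.43 and by -0.39 without it. Endothelium (15) had 1 lower and pericytes and smooth muscle (10) had 2, led by Pdgfrb, a growth factor receptor of mural cells (-0.67, and -0.37 without it), and neither had any without it. Of blood markers, 2 of 8 for erythrocytes and 4 of 15 for leukocytes reached the level for testing, and 1 and 0 of these were lower. Choroid plexus (12) ran from 8.12 to 8.28 and 7.72 to 8.16, and its defining secreted protein Ttr differed by 0.02. Neighbouring brain regions (8) ran from 7.45 to 7.60 and 7.15 to 7.38, without overlap. Hoxa5 of the hindbrain led them (-0.49 with and without replicate 2). Other marker lists were lower without overlap too: interneurons and Golgi cells, oligodendrocyte precursors, microglia, and pericytes and smooth muscle. The part of vessels, blood and adjoining tissue in the genotype differences was not tested.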

How the data were processed

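The authors deposited log2 levels per probe set, and the submitters' processing notes name RMA but no release. That they are on a log2 scale was taken from their range. No centring per gene and no ratio was seen, and which arrays were normalised together is not given in the sources used here. Array medians were 7.11, 7.10 and 7.15 in wild-type saline, 7.13, 7.14 and 7.13 in knock-out saline, 7.14, 7.14 and 7.15 in transgenic saline, 7.12, 7.15 and 7.12 in wild-type paraquat, 7.13, 6.98 and 7.13 in knock-out paraquat and 7.14, 7.15 and 7.14 in transgenic paraquat.

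Of 22690 probe sets, 64 were controls, 20380 had 1 gene symbol in the platform annotation, which can be old, 691 several and 1555 none. Only those with 1 symbol were used, 1 per gene (12393 genes) by the highest mean over all arrays. Genes at or above the 40th percentile of an array on at least 3 arrays were tested (8320, of which 8315 matched the RefSeq order). limma 3.58.1 under R 4.3.3 (lmFit, eBayes) fitted 6 group means on 18 arrays, with 12 residual degrees of freedom, and the script was tested on simulated data. Precision is bounded by the number of arrays, the 95% interval of the median gene reaching 0.27 to either side.

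Named genes were Apod, the 24 smallest p, those called without replicate 2, the member of each of 34 lists with the smallest p and 3 measured genes on each side of Apod, beside others chosen after their values were seen. The comparison, the gene lists and the tests were chosen with earlier results of these data known. Replicate numbers did not pair the wild-type and knock-out paraquat arrays: the deviations of same-numbered arrays correlated at -0.00, -0.20 and 0.04. Under saline they correlated at -0.11, 0.09 and 0.13, where replicate 3 alone matched its own number best. Pairing by number between treatments, or among the transgenic arrays, was not tested.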

Additional observations from a re-analysis of the deposited data

How the results depend on the processing

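Under 17 other settings of the paraquat comparison Apod stayed lower and called under paraquat, by -3.26 to -2.93. The number of genes called under paraquat, 1 with all arrays, ran from 1 to 12 when 1 array was left out. It stayed 1 with only the groups compared, with median centring, with no filter and with the mean of all probe sets. It was 23 on the 12 wild-type and knock-out arrays and 91 on 11 of them (a setting chosen after seeing the data). Quantile normalisation gave 2 and a filter at the 60th percentile 4. Array weights gave 68 (16 higher, 52 lower) and a mean-variance trend and robust fit 4. The count under saline, 2, ran from 1 to 3 with 1 array left out, and was 108 with only the groups compared, 39 on the 11 arrays, 241 with array weights and 1 each with the 60th percentile filter and the mean of all probe sets. Genes called for the difference between treatments, 0, ran from 0 to 1 with 1 array left out and were 2 with array weights. With the replicate number as a block, 3 genes were called under paraquat (Apod, Crim1 and Otub1) and 4 under saline. Since the numbers did not pair the wild-type and knock-out paraquat arrays, this is given as a value only.

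Of 1002 values of named genes other than Apod, none of them called with all arrays, 926 kept their direction and stayed uncalled, 74 were called and 2 reversed: Ppp1r2, -0.13 with all arrays, was 0.0415 with the mean of its probe sets and 0.0111 with array weights. Of 578 list medians, 55 moved by more than their spread, 12 of them by leaving out knock-out paraquat replicate 2.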

Other observations

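Further genes, chosen after their values were seen, stood apart on the paraquat arrays without being called in the fit of all 18. Cirbp, a cold-inducible RNA-binding protein, read 9.70, 9.79 and 9.87 in wild-type paraquat and 9.54, 9.25 and 8.97 in the knock-out, without overlap (-0.54, and -0.53 without replicate 2). Under saline it read 8.82, 8.47 and 8.70 against 8.49, 8.48 and 8.50, which overlap. Etv5, an ETS factor induced by growth factors, read 6.55, 6.62 and 6.67 in wild-type and 7.11, 6.70 and 7.24 in knock-out paraquat, without overlap, by 0.40 (0.56 without replicate 2). Under saline it differed by 0.11, also without overlap. Entpd7, an intracellular nucleotidase, read 6.96, 7.12 and 7.12 against 6.66, 6.18 and 6.51 under paraquat, by -0.61 without overlap. Under saline it differed by 0.01. Its other probe sets, at mean levels of 4.25, 4.60 and 4.76, differed by 0.19, -0.03 and 0.44 under paraquat. Without replicate 2 they differed by 0.11, -0.21 and -0.03. None of these genes passed limma's test of the difference between treatments over all genes.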
